A study of Mus musculus with 2 samples.

Results

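Nonsense-mediated decay (NMD) transcripts are RNAs of protein-coding genes whose annotated reading frame ends early, or ahead of a splice junction, so that the annotation marks them as likely targets of decay. The 516 described here lie in 401 genes. They are the transcripts typed as nonsense_mediated_decay in the GENCODE mouse M21 annotation whose gene had at least 50 reads in each of 2 libraries. In all, 2170 NMD transcripts were listed among 34697 listed transcripts, and 7186 are annotated. Members were thus chosen by the annotation type and selected on the read counts of their genes, and the levels of the genes are a description.

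NMD is a cytoplasmic surveillance pathway. A ribosome that terminates well upstream of an exon junction leaves that junction's protein complex on the RNA, UPF1 and its partners UPF2 and UPF3 are engaged, and SMG proteins start the degradation. Besides removing faulty messages, the pathway sets the level of many normal genes, above all those of splicing factors, which include a so-called poison exon with a stop codon to limit their own output. The NMD type in the annotation is a prediction from the position of the stop codon, and decay itself was not measured.

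RNA with poly(A) tails from interscapular brown fat, a tissue that makes heat, was read directly on a nanopore, 1 molecule per read. All mice were wild type male C57BL/6N, 20 weeks old. The cold library came from a pool of 3 mice housed singly at 4 °C for 24 h. The control library carries the treatment label ctrl, with general housing given as 22 to 24 °C. Its pool size is not given, and its protocol text repeats the cold exposure, against that label. The extraction text also names a different fat depot than the tissue label. With 1 library per group there was no test between conditions. The 95% intervals below cover counting error only, and compare these 2 libraries.

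In total, 1698124 control reads and 1215617 cold reads were counted, of which 1160118 and 858355 were encoded in the nucleus. Read counts below are as deposited, so equal counts are a larger part of the cold library. The 9 brown adipocyte marker genes were all listed and took 2.55% of control and 3.93% of cold reads. The 20 skeletal muscle markers were all listed too, at 0.0477% of control and 0.218% of cold reads, with 19 of the 19 that had at least 20 reads higher in cold. No muscle marker gene held an NMD member, and 5 of the 20 reached the read minimum. Lymphocyte markers had 2 and 3 reads, with Cd3e, Cd79a and Cd79b at 0 in the control and Cd3g and Ms4a1 at 0 in cold. In such tissue RNA, fewer cells of a type and less RNA per cell cannot be told apart.

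The sequences of 8 members show how the early stop arises. Each pair below starts with the 15 bases that end where the NMD transcript leaves the leading coding transcript of its gene, the one with the most reads. The NMD line then runs on to its stop codon, in capitals, and the coding line runs on for 30 bases. All are 5′ to 3′ on the RNA strand, from the GENCODE M21 transcripts on GRCm38. Srsf3 and Tra2b are shown as splicing factors, Pnpla2, Idh3a and Ftl1 as abundant members, and Mrap, Selenok and 1700037H04Rik as members whose share of the gene's reads differed between the libraries.
Srsf3-201: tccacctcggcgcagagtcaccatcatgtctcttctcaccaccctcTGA
Srsf3-202, coding: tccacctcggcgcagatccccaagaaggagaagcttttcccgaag
Tra2b-206: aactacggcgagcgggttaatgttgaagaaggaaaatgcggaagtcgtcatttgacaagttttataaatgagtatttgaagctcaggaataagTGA
Tra2b-204, coding: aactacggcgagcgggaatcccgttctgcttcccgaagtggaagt
Pnpla2-201: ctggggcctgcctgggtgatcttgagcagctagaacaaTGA
Pnpla2-203, coding: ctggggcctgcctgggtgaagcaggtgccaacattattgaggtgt
Idh3a-204: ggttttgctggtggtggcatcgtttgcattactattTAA
Idh3a-205, coding: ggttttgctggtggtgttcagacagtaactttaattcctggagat
Ftl1-202: ttccaggatgtgcaggctTGA
Ftl1-201, coding: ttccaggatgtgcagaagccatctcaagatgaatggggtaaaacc
Mrap-202: tgaaagccaacaagctgTGA
Mrap-201, coding: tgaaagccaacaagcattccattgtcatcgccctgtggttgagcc
Selenok-203: attcgtggttttcttgttcctgcccTAG
Selenok-201, coding: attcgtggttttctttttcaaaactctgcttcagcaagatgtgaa
1700037H04Rik-207: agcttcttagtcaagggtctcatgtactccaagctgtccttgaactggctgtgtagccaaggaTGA
1700037H04Rik-202, coding: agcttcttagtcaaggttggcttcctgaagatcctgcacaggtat

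In 7 of these pairs the stop lies in an exon that the coding transcript lacks. That exon is chr17:29039454-29039909 (plus strand, 456 bases) in Srsf3-201 and chr16:22258986-22259261 (minus strand, 276 bases) in Tra2b-206. It is chr7:141456568-141456649 (plus, 82 bases) in Pnpla2-201, chr9:54592161-54592255 (plus, 95 bases) in Idh3a-204 and chr16:90746642-90746726 (plus, 85 bases) in Mrap-202. In Selenok-203 it is chr14:29970800-29970862 (plus, 63 bases), and in 1700037H04Rik-207 chr2:131149441-131149542 (minus, 102 bases). Ftl1-202 instead uses a shifted splice site in exon chr7:45458535-45458681 (minus), and its stop follows 3 bases after the junction.

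Reads on all NMD transcripts were a small and similar part of both libraries. There were 28247 in the control and 21644 in cold, which is 2.43% (95% Clopper-Pearson interval 2.41 to 2.46) and 2.52% (2.49 to 2.55) of nuclear-encoded reads. The ratio of the shares was 1.04 (1.02 to 1.05). It was 0.985 (0.968 to 1.00) when reads of pseudogenes were left out of the total. Without NMD transcripts that lie at least 25% in exons of other genes, it was 0.990 (0.972 to 1.01). The direction of this small difference therefore changed with the reads left out, and the intervals of both alternatives include 1. Pseudogene genes took 14.7% of nuclear reads in the control and 10.3% in cold, and the ratio above without them is the only value that bears on their part.

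The 516 members held most of these reads, 21791 in the control and 16792 in cold, or 1.88% and 1.96% of nuclear-encoded reads. Within their 401 genes they made up 14.6% of reads in the control and 14.3% in cold. Coding transcripts took 79.5% and 80.8% there, and retained-intron transcripts 4.22% and 3.74%. Of the members, 392 were listed in both libraries, 70 in the control only and 54 in cold only. None of those in a single library had more than 12 reads, and 129 members had 1 or 2 reads in all. The other 1654 NMD transcripts sat in genes below the read minimum.

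A few members carried much of the total. The 12 most abundant held 45.2% of member reads in the control and 48.4% in cold, and the 50 most abundant 73.6% and 72.9%. First was Dbi-204, from the gene for acyl-CoA-binding protein, with 3172 control and 1598 cold reads, or 14.6% and 9.52% of all member reads. It was 57.7% and 56.2% of the Dbi reads, so the NMD form outnumbered the coding Dbi-201 (2274 and 1228 reads) in both libraries. Dbi-204 differs from Dbi-201 by a shifted splice site, has 77 codons against 87, and its stop lies 62 bases before the last junction. The annotation gives Dbi-204 support level 5, and 5.05% of its 31-base stretches occur in no other transcript of the gene.

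**Figure D1:**
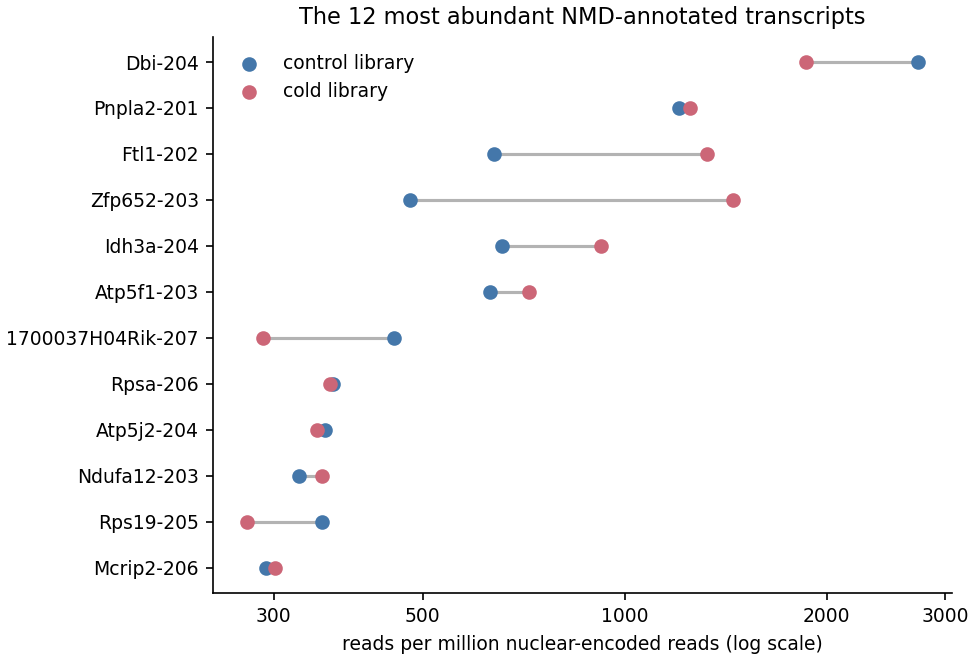
Level of the 12 most abundant NMD transcripts as reads scaled to the nuclear-encoded total (log axis), 1 point per library (control blue, cold red) joined by a line. Dbi-204 was highest in both libraries. Zfp652-203 and Ftl1-202 lay higher in the cold library, and 1700037H04Rik-207 lower.

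Several of the next ones came from genes of fat handling and mitochondria. Pnpla2 encodes adipose triglyceride lipase, which starts the breakdown of stored fat. Pnpla2-201 had 1400 control and 1075 cold reads, 44.0% and 47.4% of the gene, and Pnpla2-204, with the same added exon, had 355 and 205 (11.1% and 9.04%). The leading coding form, Pnpla2-203, had 1221 and 875. Of all Pnpla2 reads, those assigned to the forms with the added exon were thus the larger part in both libraries. Pnpla2-201 has no 31-base stretch that all other forms of the gene lack. How reads that match several forms were assigned is not given. The added exon cuts the frame to 70 codons from 486.

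Idh3a encodes the catalytic subunit of the NAD-dependent isocitrate dehydrogenase of the citric acid cycle. Idh3a-204 had 761 and 791 reads, 32.9% of the gene in the control and 33.8% in cold, with 37 codons against 384. Atp5f1-203, from the gene of a stalk subunit of ATP synthase, had 732 and 618 reads (51.6% and 56.2%). Atp5j2-204, from another ATP synthase subunit gene, had 415 and 299 reads (17.8% and 18.2%), and Ndufa12-203, from a complex I subunit gene, 380 and 304 (45.7% and 45.6%). None of these shares differed by 5 points between the libraries. Among them only the interval of Atp5f1-203 excluded 0 (4.56 points, 0.63 to 8.46).

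Ftl1, the light chain of the iron store ferritin, had 1440 control and 2295 cold reads as a gene. Ftl1-202 had 740 and 1140 of them, which left its share at 51.4% and 49.7%. Ribosomal protein genes are in this group as well. Rpsa-206 had 427 and 313 reads (40.8% and 38.8%) while Rps19-205 had 411 and 235 (57.7% and 59.0%). Ftl1, Rpsa and Rps19 have near-identical pseudogene copies, so their counts are uncertain to the extent that reads were split. Mcrip2-206 had 339 and 259 reads (60.6% and 58.7%).

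Zfp652-203 stood out by level and needs a caution. It had 556 reads in the control and 1245 in cold, 97.9% and 99.2% of the reads given to the zinc-finger gene Zfp652, and was 2.76-fold higher in cold (2.50 to 3.06) after TMM scaling, which is used for all fold values here. Of its 6568 bases, 27.7% lie in exons of other genes on the same strand, with the largest part in the phosphatase gene Phospho1. Phospho1 itself had 193 and 402 reads, a ratio of 2.57 (2.16 to 3.07). Reads of one gene counted under the other cannot be told apart with these files. Gm44502-201, with 155 and 189 reads, lies wholly within exons of other genes. The largest part is in Cpt1b (453 and 562 reads), the muscle-type carnitine palmitoyltransferase also used in brown fat. Gm21981-201, with 79 and 53 reads, lies 72.8% in other genes, with the largest part in Prickle4 (0 and 1 reads). Gm44502-201 and Gm21981-201 are each the only listed transcript of their gene. In all, 26 members lie at least 25% in other genes, and they held 5.63% of member reads in the control and 11.1% in cold.

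Most members were minor forms of their gene. The median share of the gene's reads was 5.07% in the control (quartiles 0.840% and 17.4%) and 4.78% in cold (0.842% and 16.2%). In 98 members it was below 1% in both libraries, in 69 above 30%, and in 22 above 50%. Per gene, the summed NMD share was above 50% in both libraries in 30 genes. A single member was found in 319 genes, 2 members in 62, and at least 3 in 20, with at most 7.

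Besides Mrap, described further on, other high shares were in genes with varied roles. Fuom-212, from the fucose mutarotase gene, had 69.8% and 72.0%, and Psmc5-202, from a proteasome ATPase gene, 67.0% and 58.7%. Chchd1-205, from a mitochondrial ribosome protein gene, had 65.1% and 66.7%, Creg1-203 had 62.6% and 67.3%, and Gsto1-206, from a glutathione transferase gene, 61.7% and 59.7%. Each of these held over 50% of its gene's reads in both libraries.

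The members were shorter messages with short frames. Their median length was 1386 bases against 2208 for the leading coding transcripts of their genes. Over the 420 members with a complete start, the median frame was 89.5 codons against 323. Taken member by member, the median ratio to the leading frame was 39.8%, and 20 members had an equal and 8 a longer frame. The stop was TGA in 291 members (56.5%), TAA in 127 (24.7%) and TAG in 97 (18.8%). It lay more than 50 bases before the last junction in 511 of 515 members, with a median of 317 bases, against 38 of 4782 coding transcripts (0.795%). That distance is the annotation's own criterion and is no finding.

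Compared with the leading coding transcript, which 512 members have, 216 members used a shifted splice site, 149 an extra exon and 129 skipped an exon. Another first exon was present in 117, another last exon in 115, an intron inside a coding exon in 33 and a retained intron in 26, and a member can show several of these. The stop lay in an exon that the coding transcript lacks in 107 of 511 members, in other added sequence in 114, and in shared exon sequence read after the difference in 253. The remaining 37 kept the coding stop and have a junction after it.

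That last class includes well-known RNA-binding protein genes. Hnrnpa2b1-207, from an hnRNP gene that binds nascent RNA, keeps all 353 codons of its coding partner and ends 157 bases before its last junction. It had 124 control and 134 cold reads, 33.3% and 37.3% of the gene. Hnrnpa1-204 keeps 373 codons and had 10 of 64 and 17 of 61 reads. Lpl-203, from the lipoprotein lipase gene, keeps 474 codons and had 21 reads in the control and 71 in cold.

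Members had higher shares the farther their first difference from the coding form was counted from the 3′ end. Nanopore reads of poly(A) RNA begin at that end. Sequence past the coding form's own 3′ end was not counted as a difference. Zfp652-203 and Papola-214, with another last exon past it, thus count as beyond 2000 bases though they differ at the end itself. Shares without such members were not tested. The median of the mean share was 1.09% in the 214 members within 500 bases and 5.41% in the 137 at 500 to 1000 bases. It was 9.67% in the 108 at 1000 to 2000 bases and 14.1% in the 53 beyond 2000 bases. Most members share nearly all their sequence with other transcripts of their gene. The median member had 3.30% of its 31-base words in no other transcript of the gene, and 79 had none, Srsf3-201, Mcrip2-206 and Pnpla2-201 among them. How a read that matches several forms was assigned is not given in the sources used here, and its part in these shares was not tested.

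**Figure D2:**
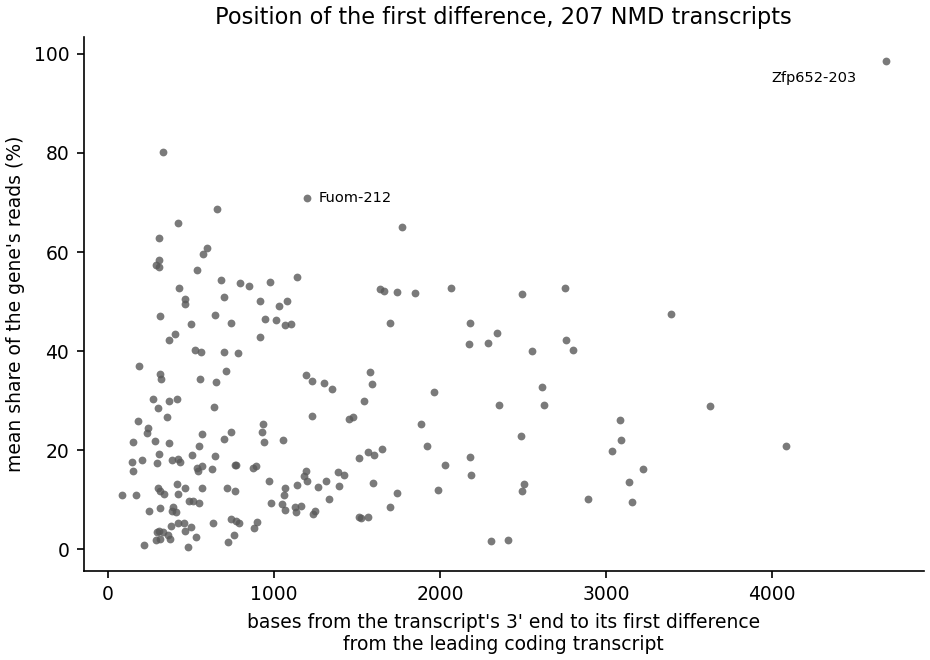
Mean share of the gene's reads over both libraries (percent) against the distance in bases from the transcript's 3′ end to its first difference from the leading coding transcript, 1 point per NMD transcript with at least 20 reads. Sequence past the coding transcript's own 3′ end was not counted as a difference. Zfp652-203 is farthest out at 4683 bases and Fuom-212 lies at 1196, and both run past that end.

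For most members the shares were close in both libraries. Over the 209 members with at least 20 reads and another listed transcript, Pearson's r between the control and cold shares was 0.942 and Spearman's rho 0.938, as a description across transcripts, and the median absolute difference was 2.39 points. A difference was counted when its Newcombe interval excluded 0 and it reached 5 percentage points. Of 514 members in genes with at least 2 listed transcripts, 11 were higher in cold (2.14%) and 18 lower (3.50%), or 5.64% in all. Over all 7309 transcripts tested in the same way, 4.27% differed, 2.26% higher and 2.01% lower, and over coding transcripts 5.16%. The members' rate was thus near the background. With at least 20 reads, 18 of 209 members (8.61%) differed, against 6.87% of 3871 transcripts. The median difference over members was -0.07 points.

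**Figure D3:**
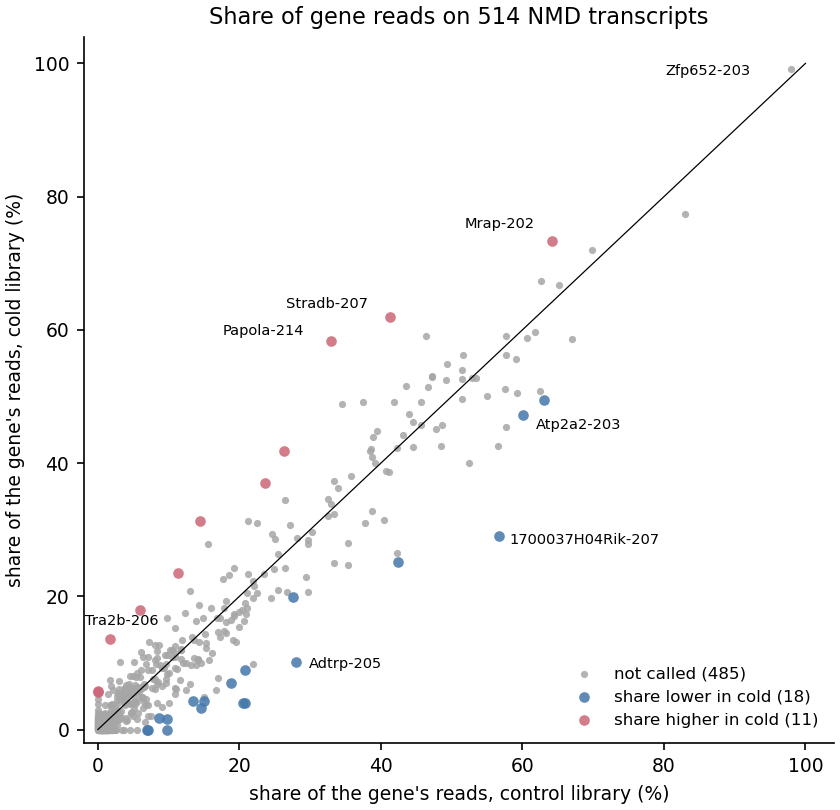
Share of the gene's reads in the control (x) and cold (y) library, in percent, for 514 NMD transcripts, with the line of equality. Points higher in cold (11) are red, lower in cold (18) blue and the others (485) grey; most lie near the line and 1700037H04Rik-207 lies farthest below it among the named ones.

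Among the members with a higher share in cold and at least 20 reads, Papola-214 was first. Papola encodes the main nuclear poly(A) polymerase. The member had 25 of 76 control reads and 35 of 60 cold reads, 32.9% and 58.3%, a difference of 25.4 points (8.60 to 40.4). The leading coding form Papola-211 had 24 and 8 reads, but it has 1033 bases and another last exon than the member of 4356 bases. The coding Papola-202, of 4380 bases, had 5 and 9 reads. The remaining coding forms had 2 control reads at most and 0 in cold. Stradb-207, from a pseudokinase gene that activates LKB1, had 26 of 63 and 31 of 50 reads, a difference of 20.7 points (2.20 to 37.3). The cold count of Stradb is exactly at the minimum of 50.

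Sgpl1-208, from the sphingosine phosphate lyase gene, had 11 and 26 reads and differed by 16.9 points (3.71 to 29.1). Tmem234-210 had 26 and 23 reads and differed by 15.6 points (0.23 to 30.8). Ppp1cc-204, from a catalytic subunit gene of protein phosphatase 1, had 9 and 19 reads and differed by 12.2 points (0.41 to 23.8). The lower ends of the last 2 intervals are close to 0.

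Mrap-202 rests on more reads. Mrap encodes the accessory protein that takes the ACTH receptor to the cell surface and is expressed in adipocytes. The NMD form had 190 of 296 control reads and 179 of 244 cold reads, 64.2% and 73.4%, a difference of 9.17 points (1.29 to 16.8). The coding Mrap-201 had 105 and 65.

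**Figure D4:**
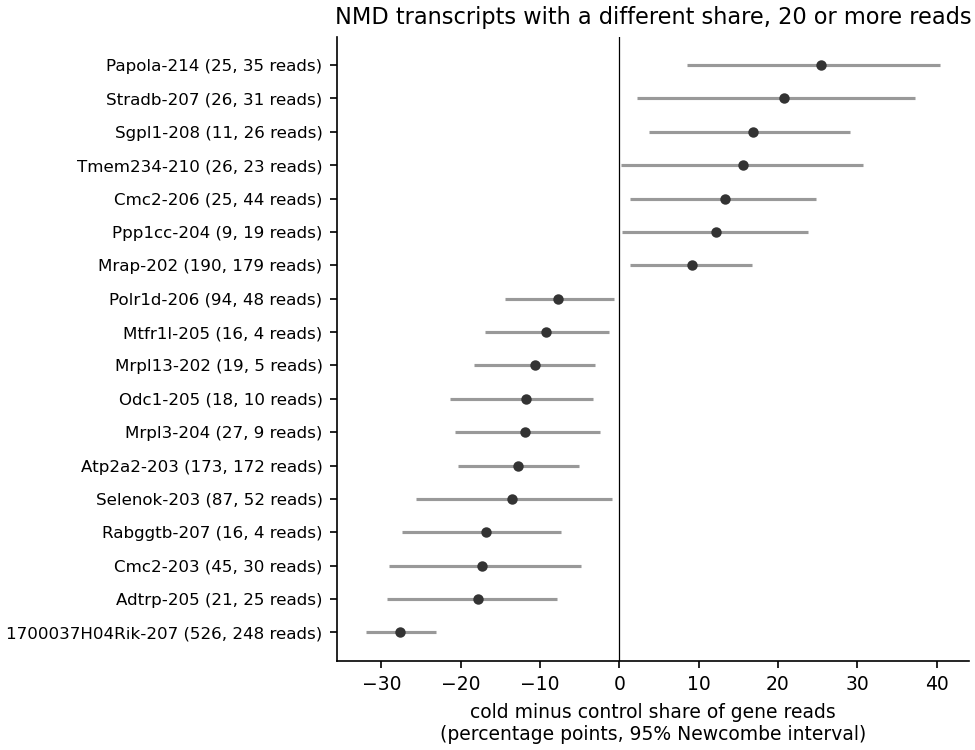
Cold minus control share of the gene's reads in percentage points for the 18 NMD transcripts that differed and had at least 20 reads, with 95% Newcombe intervals; the read counts of control and cold stand beside each name. 7 lie above 0, led by Papola-214, and 11 below, led by 1700037H04Rik-207.

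On the lower side, 1700037H04Rik-207 had the largest difference. It had 526 of 928 control reads and 248 of 854 cold reads, 56.7% and 29.0%, or -27.6 points (-32.0 to -23.2). Only 0.0753% of its 31-base words occur in no other transcript of the gene, and how reads matching several forms were assigned is not given. The retained-intron transcript 1700037H04Rik-204 had 316 and 559 reads, and with coding and NMD reads alone as the denominator the NMD share differed by -1.88 points (-7.14 to 2.90).

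Atp2a2-203 belongs to the gene of the SERCA2 calcium pump, which loads calcium into the endoplasmic reticulum of muscle and other cells. It had 173 of 288 control reads and 172 of 364 cold reads, 60.1% and 47.3%, or -12.8 points (-20.3 to -5.11). The coding Atp2a2-202 had 78 and 132 and Atp2a2-201 had 36 and 60. The frame of Atp2a2-203 is the longer one, with 1044 codons against 998 in Atp2a2-202. Skeletal muscle marker RNA was higher in the same cold library, at 0.218% against 0.0477% of reads, and its part in this result was not tested.

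Adtrp-205 had 21 of 75 control and 25 of 245 cold reads, -17.8 points (-29.3 to -7.86). Adtrp encodes a hydrolase of fatty acid esters of hydroxy fatty acids. The coding Adtrp-202 had 25 and 162. Odc1-205, from the gene of ornithine decarboxylase, the first enzyme of polyamine synthesis, had 18 of 96 and 10 of 144 reads, -11.8 points (-21.3 to -3.34). Selenok-203, from the gene of a selenoprotein of the endoplasmic reticulum, had 87 of 138 and 52 of 105 reads, -13.5 points (-25.6 to -0.97), while the coding Selenok-201 had 51 and 53.

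Mrpl3-204, from a mitochondrial ribosome gene, had 27 and 9 reads and differed by -11.9 points (-20.7 to -2.46). Rabggtb-207, from a subunit gene of the enzyme that attaches lipids to Rab proteins, had 16 and 4 reads and differed by -16.8 points (-27.4 to -7.30). Mrpl13-202, Mtfr1l-205 and Polr1d-206 were the other 3 lower members with at least 20 reads, besides Cmc2-203. The remaining 7 lower and 4 higher members had fewer than 20 reads.

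In 3 genes, named after their values were seen, one NMD form was higher and another lower. Cmc2 encodes a mitochondrial protein needed for cytochrome oxidase. Cmc2-206 had 25 of 106 control and 44 of 119 cold reads, a difference of 13.4 points (1.32 to 24.8), and Cmc2-203 had 45 and 30, a difference of -17.2 points (-29.0 to -4.88). Ergic1-209 had 0 and 7 reads and Ergic1-214 had 10 and 2. Fech, the gene of ferrochelatase, the last enzyme of heme synthesis, had Fech-207 at 0 and 5 reads and Fech-202 at 8 and 0. When NMD reads were summed per gene, 6 of 398 genes were higher and 12 lower. A matching rate for summed reads of other transcripts is not given here, so these counts are a description only.

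The level of a member, as opposed to its share, moves with its gene as well, so both are given here. Of 211 members with at least 20 reads, 9 were at least 2-fold higher in cold with an interval that excluded 1, and 9 were at least 2-fold lower (4.27% each). Over all 9161 nuclear transcripts with as many reads the rates were 4.74% and 4.54%. Lpl-203 was 4.17-fold higher (2.53 to 7.14) in a gene 2.94-fold higher, and it stayed a minor form at 0.743% and 1.05% of Lpl reads. Lgals1-202, from the galectin-1 gene, had 445 and 135 reads. It was 2.67-fold lower (2.20 to 3.27) in a gene 2.62-fold lower, and Tecr-205, from a gene of very long chain fatty acid synthesis, 2.30-fold lower (1.16 to 4.87) in a gene 2.30-fold lower. Chpt1-207, from a phosphatidylcholine synthesis gene, had 430 and 169 reads, 2.06-fold lower (1.72 to 2.48) in a gene 1.59-fold lower. Chpt1 holds further abundant members, Chpt1-205 with 362 and 185 reads and Chpt1-208 with 286 and 153, and their shares were 16.8% in both libraries and 13.3% and 13.9%.

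Splicing factors of the SR family are the textbook case of poison exons, and 12 of the 13 SR genes on the list had reads, Srsf12 being at 0 in both libraries. Only 6 reached 50 reads in each library, and 4 of these held 1 member each. NMD reads were 45 of 472 in the control (9.53%) and 64 of 455 in cold (14.1%) over the SR genes with at least 50 reads per library, a difference of 4.53 points (0.37 to 8.73). Because reads of several genes are pooled, this value moves with the level of each gene as well as with its NMD share. The median difference of the 4 members was 2.67 points. Srsf3-201 had 39 of 71 and 46 of 92 reads, 54.9% and 50%, so its share was not higher in cold (-4.93 points, -19.8 to 10.3). Tra2b-206 had 1 of 59 and 10 of 74 reads, 1.69% and 13.5%, a difference of 11.8 points (2.37 to 21.5). It was the only SR member that met the criterion, and it rests on 11 reads, under the 20 used elsewhere. Srsf1-204 had 2 and 5 reads and Srsf2-202 had 3 and 3.

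Of 42 hnRNP and other splicing regulator genes, 8 held 15 members, and none differed. Their NMD share was 8.75% in the control and 9.21% in cold (0.47 points, -1.19 to 2.13). In Hnrnpa1, Hnrnpa1-203 had 14 and 6 reads and Hnrnpa1-204 had 10 and 17, with both intervals including 0. Among 6 Clk kinase and cold-inducible RNA-binding protein genes, Rbm3 was the only one with 50 reads in each library and so the only one that could hold members. It had Rbm3-207 at 1 and 2 reads and Rbm3-208 at 1 and 0.

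NMD shares pooled over metabolic gene lists were low, and no member on these lists differed by the criterion above. Of 62 oxidative phosphorylation and citric acid cycle genes, 17 held 19 members, with 2.29% of reads in the control and 2.40% in cold. Mdh2-203, from the mitochondrial malate dehydrogenase gene, had 244 and 170 reads, and Idh2-204, from the NADP-dependent isocitrate dehydrogenase gene, 131 and 70. Of 24 lipid uptake, storage and lipolysis genes, 7 held 9 members, with 3.85% and 2.71% (-1.14 points, -1.36 to -0.915). Lpl, whose NMD share is low, had 2827 and 6743 reads within that list. Among 79 ribosomal protein genes, 15 held 19 members, with 3.62% and 3.42%, and Rps18-211 had 225 and 138 reads (44.6% and 42.5%).

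Thermogenesis genes held 3 members in 2 of 19 genes, at 0.406% and 0.279% of reads. Letmd1-202, from a gene of the mitochondrial inner membrane in brown fat, had 96 of 732 and 61 of 631 reads, and Acot11-203, from an acyl-CoA thioesterase gene, had 11 of 710 and 9 of 395. Of 14 fatty acid synthesis genes, only Mlxipl held members, and it held 4. The pooled NMD share of that list was 0.309% in the control and 0.569% in cold (0.259 points, 0.135 to 0.409), over 60100 and 13189 reads. These totals include the genes without members, so the pooled share also depends on how many reads those genes had. Within Mlxipl itself, NMD reads were 186 of 310 in the control and 75 of 124 in cold. Mlxipl encodes ChREBP, the carbohydrate-responsive transcription factor. Mlxipl-206 had 101 of 310 control and 43 of 124 cold reads (32.6% and 34.7%), and Mlxipl-203 had 44 and 13, Mlxipl-207 22 and 11, and Mlxipl-204 19 and 8. Mlxipl-203 was 2.74-fold lower (1.45 to 5.55) in a gene 2.03-fold lower. Fatty acid oxidation genes held 2 members with 4 and 2 reads.

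The decay machinery held no member, but the read minimum left little room for one: 2 of 17 NMD factor genes, 1 of 9 exon junction complex genes and 0 of 10 decapping and exonuclease genes had 50 reads in each library. Of 17 NMD factor genes, 13 had at least 20 reads, with a median log2 ratio of cold to control of -0.03 against 0.00 over all 7529 such genes. None had an interval above a ratio of 1 and 1 had one below, where 11.3% of all genes lay above and 11.3% below. That gene was Smg1, the kinase that phosphorylates UPF1, with 37 and 13 reads, 2.31-fold lower (1.20 to 4.73). Upf1, the central helicase, had 26 and 17 reads and Upf2 had 14 and 19. The termination factors Etf1 and Gspt1 had 103 and 97, and 67 and 41, and Pnrc2 had 86 and 62. Nbas had 8 and 13, Smg9 11 and 13 and Upf3a 21 and 11. With counts this low, differences of 1.5-fold were not detectable in most of them.

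Of 9 exon junction complex genes, 8 had at least 20 reads and a median log2 ratio of -0.30. Acin1 alone had an interval off 1, with 41 and 18 reads, 1.85-fold lower (1.04 to 3.42). The core helicase Eif4a3 had 73 and 45 reads, and Sap18 125 and 100. Of 10 decapping and exonuclease genes, 6 had at least 20 reads, with a median of -0.48 and no interval off 1. The median of all genes moves to 0.18 when libraries are scaled by their total counts instead of TMM factors, at which the NMD factor median was 0.15.

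Genes whose RNAs are known to be kept low by NMD give another view, from a list chosen for that reason. Of 8 such genes, 6 had at least 20 reads, with a median log2 ratio of -0.56 and no interval off 1. Atf4, a stress-response transcription factor with upstream reading frames, had 116 control and 110 cold reads. The snoRNA host Gas5 had 57 and 30, 1.54-fold lower (0.97 to 2.48), and Snhg1, another host, 28 and 15. The intervals of all 3 include a ratio of 1.

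**Figure D5:**
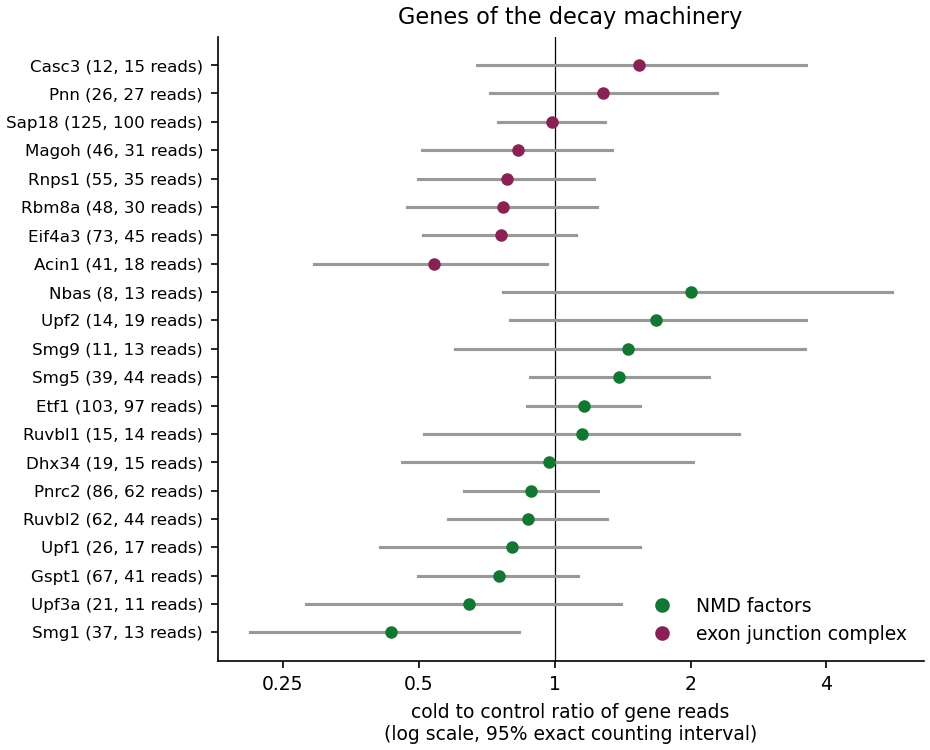
Cold to control ratio of gene reads (log axis, TMM scaling) for 13 NMD factor genes (green) and 8 exon junction complex genes (purple) with at least 20 reads, with 95% exact counting intervals and the read counts of both libraries beside each name. Only Smg1 and Acin1 have intervals that exclude 1, both below it.

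The read minimum drew a line through genes that were nearly alike. With 50 reads as the lower of their 2 counts there were 10 genes with members, Stradb, Glrx2 and Ahnak among them, with Glrx2-201 at 4 and 9 reads and Ahnak-205 at 12 and 0. With 49 reads as the lower count there were 10 genes left out, among them Cyp4b1, whose Cyp4b1-202 had 2 and 12 reads, and Gga1, whose Gga1-203 had 11 and 5.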

How the data were processed

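The authors deposited raw counts of reads for each transcript and library, in whole numbers; a transcript without reads has no line. Minimap2 and the GRCm38 build are named in the submitters' processing notes. Not given in the sources used here are versions, the annotation used and the handling of reads that match several transcripts. Groups were taken from the treatment label.

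Transcripts were matched by identifier without version to GENCODE M21, and 99 had no match. Shares have exact Clopper-Pearson intervals, share differences Newcombe intervals, and ratios exact conditional intervals after TMM scaling (edgeR 4.0.16; factors 0.940 and 1.06), all at 95%. The prior for log2 ratios was 0.5 reads. Scripts were tested on simulated data.

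Members and gene lists were chosen with earlier results of these data known. Named members are the 12 most abundant, the 8 highest and 8 lowest differences and the 10 highest shares with at least 20 reads, and up to 3 per gene list with at least 10; machinery genes are the highest, lowest and most abundant. A member named by this rule is not reported here. Alternatives covered denominators, read minimums, annotation support and scaling (DESeq2 1.42.0 size factors).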

Additional observations from a re-analysis of the deposited data

How the results depend on the processing

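The NMD share of nuclear-encoded reads was 1.66% in the control and 1.78% in cold (ratio 1.07) with all reads as the denominator, 2.85% and 2.81% (0.985) without pseudogenes, and 1.33% and 1.56% (1.17) with annotation support level 1 or 2 only. It was 1.88% and 1.96% in genes with at least 50 reads, and 2.16% and 2.34% (1.08) without Dbi-204. Without NMD transcripts at least 25% in other genes, an alternative chosen after seeing the data, it was 2.28% and 2.26% (0.990). Against 11 higher and 18 lower of 514 members, a gene minimum of 20 reads gave 20 higher and 26 lower of 1028. A minimum of 100 gave 3 higher and 9 lower of 269. At least 10 points gave 8 higher and 11 lower of 514, and support level 1 or 2 gave 7 higher and 6 lower of 209. Of alternatives added after seeing the data, members whose first difference was counted within 500 bases of the 3′ end gave 3 and 1 of 214. Members with at least 20 reads gave 7 and 11 of 209. Rates over all transcripts are given above for the main setting and for at least 20 reads, and not for the other settings. The NMD factor median log2 ratio was 0.15 with total counts, -0.056 with DESeq2 size factors and -0.18 over the 4 genes with at least 100 reads. The cause of these changes was not tested, except that stricter minimums test fewer transcripts. With coding and NMD reads as the denominator, also added later, 58 of the values for single members kept their call and 1700037H04Rik-207 did not, at -1.88 points.

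Depth limits most members, since 129 have 1 or 2 reads. No paired analysis was possible because each group has 1 library, with none to leave out.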
